A study of Homo sapiens with 4 samples.

Results

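The S100 proteins are small calcium-binding proteins, and 10 of their genes, S100A6, S100A7, S100A8, S100A9, S100A10, S100A11, S100A13, S100A14, S100A16 and S100P, were followed in RNA sequencing of SKBR3 cells. These genes were chosen by name from the 56271 genes of the deposited table, and all 10 were expressed highly enough to be tested. SKBR3 is an established breast cancer line with amplified ERBB2 (HER2). The study set 2 libraries of VIRMA-overexpressing cells (VIRMA libraries) against 2 of eGFP control cells (eGFP libraries or controls), to ask which transcripts differ when VIRMA is raised. VIRMA is a scaffold of the enzyme complex that places the methyl mark m6A on adenosines in RNA.

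Both groups were lentivirally transduced SKBR3 cells. Control cells carried eGFP alone behind the human ubiquitin C promoter, and the other cells carried HA-tagged full-length VIRMA together with eGFP. Both were sorted for eGFP and grown as mixed populations, so neither is a single clone. The replicates are called biological duplicates by the study's methods, and p-values measure the spread between these libraries. Differences that the sorted populations had for other reasons cannot be told apart from those that VIRMA makes. The growth text is the same for all 4 libraries and tells of culture at low oxygen, whereas the study's methods name no such step for RNA sequencing. The oxygen level is therefore uncertain, and was taken to be alike in both groups.

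Most S100 proteins have a pair of EF-hands, loops that hold calcium, and work as dimers. Calcium binding opens a surface that grips target proteins such as annexins, cytoskeletal proteins and enzymes. Several members are also secreted and then act on receptors such as RAGE (AGER) and TLR4. Most human S100 genes lie side by side on chromosome 1 near the genes of the epidermal differentiation complex. In epithelia, S100A7, S100A8 and S100A9 are best known for their rise in inflamed skin and in some breast tumours.

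The libraries held 81446932 to 86375474 counts. VIRMA, listed as KIAA1429, was counted 710 and 682 times in eGFP libraries and 3437 and 3460 times in VIRMA libraries, a log2 change of 2.29 (SE 0.0685, edgeR adjusted p 9.74e-26). Counts of the receptor ERBB2 were 580259 to 600215 in all 4 libraries, and 12 of 14 markers of a luminal HER2-positive line were expressed highly enough to be tested. Among these markers 5 were higher and 3 lower (7 and 2 when scaled by library totals). CDH1, the E-cadherin gene, had at most 33 counts in any library. Of 13 markers of squamous keratinocytes, only KRT10 passed the filter.

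All S100 levels are first given as RPKM (counts per kilobase of exon, scaled to library size), since levels of different genes are compared here per length only. The length is that of all annotated exons of a gene, not of a single transcript. The order of the genes and their shares of the sum therefore depend on the annotation. RPKM uses library totals without the TMM factors with which the test adjusts them. Gaps between the groups in RPKM therefore differ from the fold changes given below. S100A6, also called calcyclin, was the most abundant member in both groups, at 2683 ± 73.6 RPKM in eGFP libraries and 3367 ± 196 in VIRMA-overexpressing cells (SD, n = 2, as for all values given with ±). S100A11, a partner of annexin A1, followed at 1169.9 ± 29.3 and 1270.3 ± 72.7 RPKM. S100A14 came next at 1013 ± 13.5 and 855 ± 5.67 RPKM, only 1.07 and 1.11 times the level of S100A9. S100A9 stood at 950.1 ± 17.4 and 772 ± 13.2 RPKM, and S100A16 at 681 ± 14.3 and 488 ± 18.5.

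The lower part of the order began with S100P at 199 ± 9.20 RPKM in eGFP libraries and 290.3 ± 15.4 in VIRMA-overexpressing cells. S100A8, the dimer partner of S100A9, had 138 ± 5.19 and 89.9 ± 0.875 RPKM. S100A10 was at 59.6 ± 1.59 and 29.9 ± 0.658 RPKM, S100A13 at 24.9 ± 2.60 and 22.6 ± 1.12, and S100A7 at 21.5 ± 1.56 and 16.9 ± 0.0407. The order of the 10 genes was the same in both groups, and the libraries of no neighbouring pair overlapped within a group. With no correction for length, 4 places of this order would change in eGFP libraries and 6 in VIRMA libraries.

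**Figure D1:**
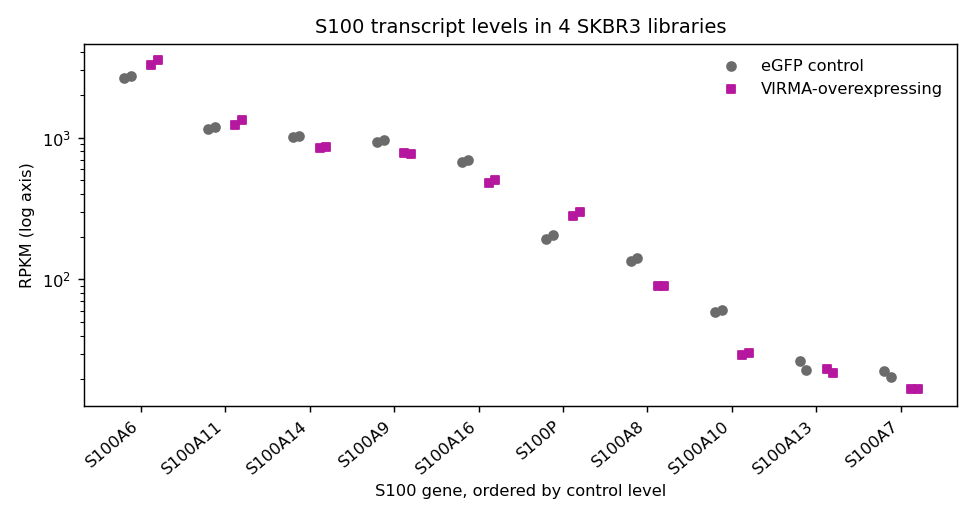
RPKM (log axis) of the 10 S100 genes in each of the 4 libraries, with eGFP controls as grey circles and VIRMA-overexpressing libraries as magenta squares, 2 points per group and gene, ordered by the control mean. The order from S100A6 to S100A7 is shared by both groups, and on this log axis the gap between the groups is widest for S100A10, at 59.6 against 29.9 RPKM.

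As a whole the family took 0.684% and 0.706% of all counts in eGFP libraries and 0.686% and 0.727% in VIRMA libraries. The summed RPKM of the 10 genes was 6827 and 7053 in eGFP libraries and 6994 and 7411 in VIRMA libraries, so the groups overlapped (exact two-sided permutation p = 0.667). Both measures use library totals, and their means were higher in VIRMA libraries. With TMM factors and no length (CPM), the sum was 7025 and 7290 in eGFP libraries and 6648 and 7087 in VIRMA libraries. The mean of this sum was lower in VIRMA libraries, at 6867 against 7157, and the groups again overlapped (exact two-sided permutation p = 0.667). The direction of the family total thus depended on the scale. The division of the summed RPKM differed. S100A6 made up 38.5% and 38.8% of it in eGFP libraries and 46.2% and 47.3% in VIRMA libraries. S100A16 made up 9.83% and 9.80% in eGFP libraries and 6.79% and 6.76% in the other libraries, and S100P 2.82% and 2.91% against 4.00% and 4.06%. With 2 libraries against 2, no exact test of a single value can give a p below 0.333.

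The members were also compared by the letters just upstream of their starts, since genes with a TATA box often vary widely between cell states. The letters TATAAA were searched on the gene's own strand, with the first base 21 to 40 bases before a RefSeq start (GRCh38.p14), in the promoters of the 10 members. They were found at 1 start of each of 5 members, S100A7, S100A8, S100A9, S100A13 and S100P, against 793 of 27305 genes with a promoter in the same set (2.9%), or at 5 of 15 starts of members against 806 of 35116 starts (2.3%). S100A6, S100A10, S100A11, S100A14 and S100A16 had no such match in this window. The matching windows run from 40 to 11 bases before the start, with TATAAA in capitals, and a match is a description of the sequence and no measure of its use.
S100A7, chr1:153460662-153460691, minus strand: caggctgagcctTATAAAggactgctcttt
S100A8, chr1:153391084-153391113, minus strand, 1 of 3 starts: agcctaaccgcTATAAAaaggagctgcctc
S100A9, chr1:153357814-153357843, plus strand: caggagctgccTATAAAtgccgagcctgca
S100A13, chr1:153627516-153627545, minus strand, 1 of 3 starts: tccccgctgctTATAAAcctcagccctgag
S100P, chr4:6693838-6693867, plus strand: atgaggctgcctTATAAAgcaccaagaggc

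Between the groups, 7 of the 10 members were lower in VIRMA-overexpressing cells (S100A7, S100A8, S100A9, S100A10, S100A13, S100A14 and S100A16), 2 were higher (S100A6 and S100P), and S100A11 did not pass the test. The calls are those of the quasi-likelihood test of edgeR at an adjusted p below 0.05, for which 35.9% of the 12205 genes tested were lower and 35.1% higher. These shares over all genes also serve for comparison with the lists counted below. The median log2 fold change of the members was -0.36, beside 0.01 over all genes tested. In CPM, the libraries of the groups did not overlap for 9 of the 10 members and for 84.3% of all genes. Overlap depended on the scale for S100A11 and S100A13. In RPKM, S100A11 did not overlap (1149 and 1191 in eGFP libraries, 1219 and 1322 in VIRMA libraries). S100A13 did overlap in RPKM (26.7 and 23.1 in eGFP libraries, 23.4 and 21.8 in VIRMA libraries). Most members moved by less than 2-fold, and S100A10 was the only one past both thresholds of the study, which ask for an adjusted p under 0.05 together with a change past 1 in either direction on the log2 scale. Of all genes tested 2.93% were lower and 4.52% higher by that rule, and 0 members were higher. Of the 5 members with the TATAAA match shown above, 4 were lower and 1 higher, and of the 5 without it 3 were lower, 1 higher and 1 not called. In a bulk sample, fewer cells that express a gene and less of its RNA per cell cannot be told apart.

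**Figure D2:**
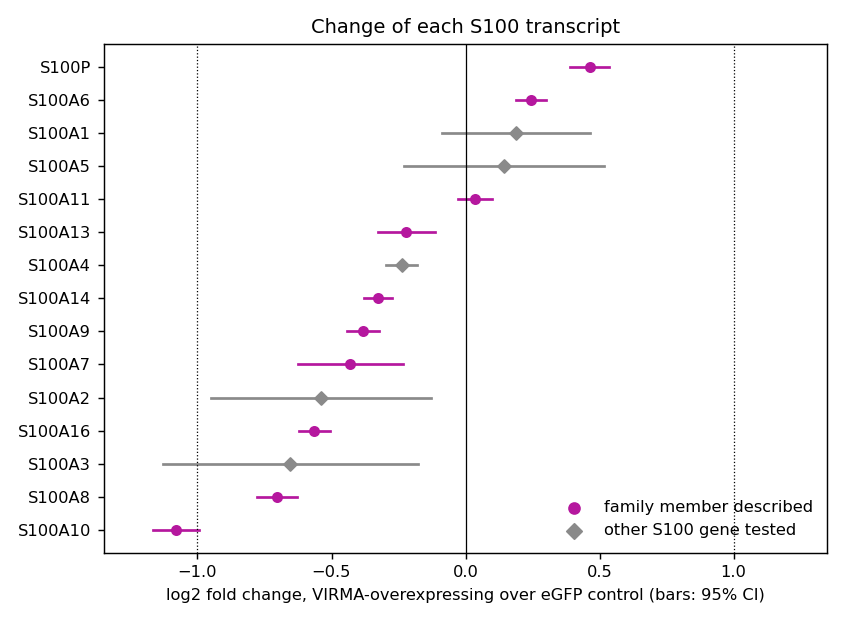
Log2 fold change of VIRMA-overexpressing over eGFP control cells, with 95% confidence intervals from edgeR as bars, for the 10 members (magenta circles) and the 5 other S100 genes tested (grey diamonds); dotted lines mark 2-fold in each direction. S100P and S100A6 lie to the right of 0, the interval of S100A11 spans 0, the other 7 members lie to the left, and S100A10 is the lowest at -1.08.

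S100A10 (chromosome 1, 151982915 to 151994390, minus strand) showed the deepest fall of the 10 members. Unlike its relatives it does not need calcium, and it sits with annexin A2 in a complex at the inner face of the plasma membrane. Its CPM, which adjusts counts for library size with TMM factors, was 92.7 and 96.8 in eGFP libraries and 44.0 and 45.6 in VIRMA libraries, which lay close to each other and far below both controls. The log2 fold change was -1.08 (SE 0.0416, 95% CI -1.16 to -0.996, edgeR adjusted p 1.72e-22), a loss of 52.7%. The fall was close to 2-fold, and it was not past that threshold with library totals (-0.997) or in a test of the fold change against 2-fold.

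ANXA2, the gene of annexin A2, was lower too. It had 187 and 192 CPM in eGFP libraries and 102 and 104 in VIRMA libraries, with no overlap and a log2 change of -0.88 (SE 0.0337, edgeR adjusted p 1.34e-22). The RPKM ratio of ANXA2 to S100A10 was 0.354 and 0.348 in eGFP libraries and 0.407 and 0.397 in VIRMA libraries, so both transcripts fell and S100A10 somewhat more (exact two-sided permutation p = 0.333, the smallest that 2 against 2 allows). AHNAK, a very large scaffold protein that binds the S100A10 and annexin A2 complex, was at 467 and 470.2 CPM in eGFP libraries and 363 and 357 in the other libraries (log2 fold change -0.38, edgeR adjusted p 5.05e-14). PLAT, the plasminogen activator that this complex binds at the cell surface, was under the filter, with 37 and 9 counts in eGFP libraries and 17 and 13 in VIRMA libraries.

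Of 19 annexins and other S100 partner proteins, 17 were tested, of which 11 were lower, 3 higher and 3 not called, with a median log2 change of -0.18 (4 higher and 9 lower with upper-quartile factors or library totals). Annexins are proteins that bind membranes in the presence of calcium. Of the 8 annexin genes tested, 7 were lower and ANXA3 was higher, at 11.8 and 12.7 CPM in eGFP libraries and 20.2 and 19.3 in VIRMA libraries (log2 fold change 0.69, edgeR adjusted p 7.89e-10). Among the 7, ANXA9 (-0.23) was not called with upper-quartile or library-total scaling. RANBP9, a scaffold of an E3 ubiquitin ligase complex, was higher at 0.48 on the log2 scale, and S100PBP, which encodes a nuclear protein that binds S100P, at 0.18 (edgeR adjusted p 7.06e-13 and 0.0338).

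S100A6 (chromosome 1, 153534599 to 153536244, minus strand) rose. Its CPM was 2622 and 2741 in eGFP libraries and 3037 and 3317 in VIRMA libraries, and both of the latter lay above both controls. The log2 fold change was 0.24 (SE 0.0280, 95% CI 0.19 to 0.30, edgeR adjusted p 1.22e-09), a gain of 18.5%. Its exons share 23 of 971 bases with a clone-named gene on the opposite strand that had 1079 to 1259 counts per library. CACYBP encodes the calcyclin-binding protein, a partner of S100A6 that links it to the ubiquitin ligase SIAH1, and it moved the other way. It had 126 and 131 CPM in eGFP libraries and 61.4 and 60.4 in VIRMA libraries, a log2 change of -1.08 (SE 0.0378, edgeR adjusted p 1.04e-23), past both thresholds. SUGT1, a relative of CACYBP that also binds S100A6, was at -0.03 (edgeR adjusted p 0.659).

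**Figure D3:**
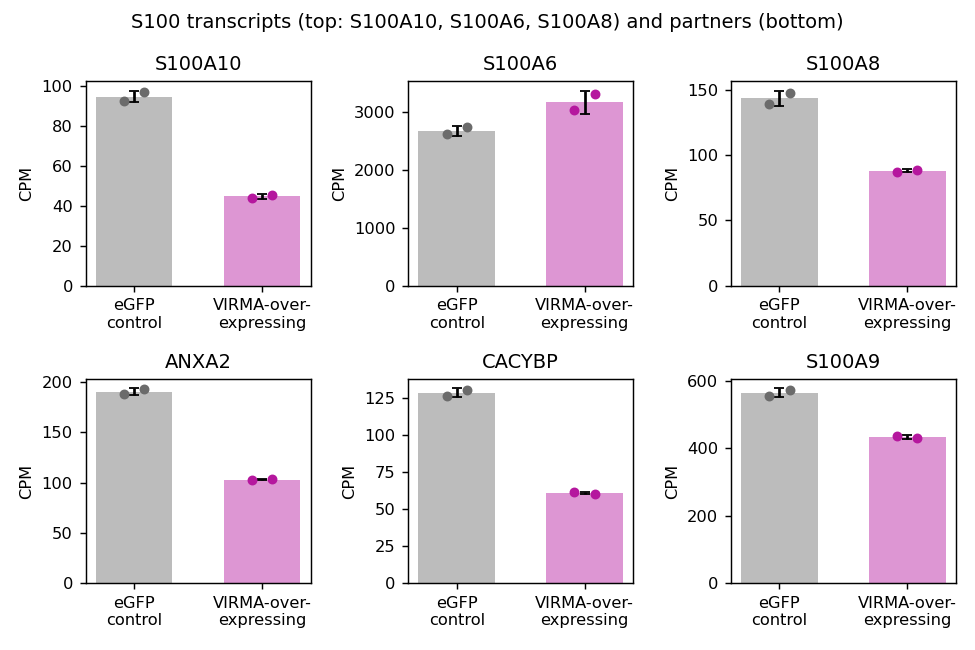
CPM (linear axes from 0, bars as mean and SD of 2 libraries, points as single libraries) of S100A10, S100A6 and S100A8 in the upper row and of ANXA2, CACYBP and S100A9, a partner of each, in the lower row. In VIRMA libraries S100A6 is higher (3037 and 3317 against 2622 and 2741) while the other 5 genes are lower, with no overlap between the groups in any panel.

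S100A8 (chromosome 1, 153390032 to 153391188, minus strand) and S100A9 (153357854 to 153361027, plus strand) encode the subunits of calprotectin, the abundant zinc- and manganese-binding protein of neutrophils that stressed epithelia also make. S100A8 had 139 and 147 CPM in eGFP libraries and 87.0 and 88.8 in VIRMA libraries. Its log2 fold change was -0.70 (SE 0.0367, 95% CI -0.78 to -0.63, edgeR adjusted p 1.14e-18), a loss of 38.6%. S100A9 had 556 and 573 CPM in eGFP libraries and 437 and 429 in VIRMA libraries. Its log2 fold change was -0.38 (SE 0.0288, 95% CI -0.44 to -0.32, edgeR adjusted p 3.45e-14), a loss of 23.3%. Both subunits fell with no overlap between the groups, and their intervals do not meet.

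The S100A9 transcript was in excess in every library. Its RPKM was 6.97 and 6.78 times that of S100A8 in eGFP libraries and 8.75 and 8.42 times in VIRMA libraries (6.87 ± 0.132 against 8.59 ± 0.230, exact two-sided permutation p = 0.333, the smallest possible). The size of this ratio depends on the exonic lengths used, 577 bases for S100A9 and 1006 for S100A8. In CPM, with no length, the means of S100A9 and S100A8 were closer, at 564 and 143 in eGFP libraries and 433 and 87.9 in VIRMA libraries. S100A12, another calgranulin of neutrophils, was under the filter, with 43 and 38 counts in eGFP libraries and 16 and 36 in VIRMA libraries. Fitted by edgeR with unfiltered counts, it was at -0.69 on the log2 scale (adjusted p 0.357).

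Since calprotectin is a product of leukocytes, 19 leukocyte markers were read in the same libraries. Only CSF1R, a growth factor receptor of macrophages that some breast cancer cells also express, passed the filter. It had 27.5 and 26.1 CPM in eGFP libraries and 13.9 in each VIRMA library (log2 fold change -0.95, edgeR adjusted p 1.47e-14). The summed CPM of the 19 markers was 40.2 and 36.5 in eGFP libraries and 24.5 and 23.9 in VIRMA libraries, and without CSF1R 12.7 and 10.4 against 10.6 and 9.98. Both controls lay above both other libraries for 9 of the 19 markers, and below both for 3. Next to CSF1R the highest were ITGB2, an integrin chain of leukocytes, with 441 and 386 counts in eGFP libraries and 408 and 381 in VIRMA libraries, and CSF3R, the G-CSF receptor of neutrophils, with 152 and 175 against 227 and 205. The other 16 markers had at most 90 counts in any library. Among these, PTPRC (CD45) had 23 and 13 counts in eGFP libraries and 3 and 0 in the other libraries, LYZ 14 and 7 against 0 and 1, and MPO 3 and 0 against 0 and 0, while ELANE was at 0 in all 4. HBB, a gene of red blood cells, had 2137 and 1543 counts in eGFP libraries and 0 in both VIRMA libraries. The markers thus did not move in a single direction. The part of CSF1R, of HBB and of other cells in the S100A8 and S100A9 differences was not tested.

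Secreted S100 proteins are met at the cell surface by receptors and proteoglycans. Of 10 such genes listed 7 were tested, of which 4 were lower, 1 higher and 2 not called, with a median log2 change of -0.27 (4 lower and 2 higher with upper-quartile factors or library totals). NPTN, neuroplastin, was at 53.0 and 53.9 CPM in eGFP libraries and 35.1 and 36.7 in VIRMA libraries (log2 fold change -0.57, edgeR adjusted p 5.16e-13). MCAM, an adhesion molecule of the immunoglobulin family, had a log2 fold change of -0.39, the heparan sulfate proteoglycan SDC1 of -0.37, and BSG (basigin) of -0.27. The related proteoglycan SDC4 was higher, at 0.21. AGER, the gene of RAGE, had 383 and 437 counts in eGFP libraries and 522 and 458 in VIRMA libraries (log2 fold change 0.24, edgeR adjusted p 0.117), and it passed the test with upper-quartile factors or library totals. TLR4 was at the limit of detection, with 2 and 7 counts in eGFP libraries and 0 in both VIRMA libraries. CD36 had 41 and 24 counts against 11 and 8, and CD33 at most 7 counts in any library.

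The transcription factors known to act on S100A8, S100A9 and barrier genes moved in both directions. Their list also held SOCS3 and NFKBIA, which are not transcription factors and are among the 6 lower. Of 20 listed, 19 were tested, with 8 higher, 6 lower and 5 not called and a median log2 fold change of 0.10 (10 higher and 5 lower, with medians of 0.17 and 0.18, under upper-quartile and library-total scaling). CEBPB, a basic leucine zipper factor that activates calgranulin genes in myeloid cells, was higher, at 356 and 342 CPM in eGFP libraries and 590.0 and 599 in VIRMA libraries (log2 fold change 0.77, edgeR adjusted p 1.53e-22). CEBPG, a short family member that pairs with other leucine zipper factors, rose from 31.2 and 33.6 CPM to 115 and 112 (log2 fold change 1.81, edgeR adjusted p 9.26e-29). EHF, an epithelial ETS factor, rose by 1.21 on the log2 scale (edgeR adjusted p 1.77e-14). SOCS3, a STAT3 target that restrains STAT3 signalling, had 13.7 and 16.2 CPM in eGFP libraries and 7.77 and 8.30 in the other libraries (log2 fold change -0.89, edgeR adjusted p 2.78e-10). STAT3 itself was at 0.04 (edgeR adjusted p 0.196) and was called higher with upper-quartile factors or library totals. Thus CEBPB and CEBPG were higher in the libraries in which S100A8 and S100A9 were lower. Their relatives CEBPA (0.22) and CEBPD (-0.04) were not called (edgeR adjusted p 0.297 and 0.511). NFKB1 (-0.25) and NFKBIA (-0.28) were lower (edgeR adjusted p 2.63e-05 and 1.36e-07). RELA (-0.09) was lower too (edgeR adjusted p 0.0284), but was not called with upper-quartile factors or library totals.

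S100A7 (chromosome 1, 153457744 to 153460701, minus strand), or psoriasin, is an antimicrobial protein of keratinocytes that is also made in ductal carcinoma in situ. It was the least abundant member, at 12.4 and 11.3 CPM in eGFP libraries and 8.75 and 8.83 in VIRMA libraries. It fell by 0.43 on the log2 scale (SE 0.0962, 95% CI -0.63 to -0.24, edgeR adjusted p 0.000167), a loss of 25.8%, and its interval was the widest among the members. S100A7A, a near-identical copy, had 164 and 144 counts in eGFP libraries and 129 and 121 in VIRMA libraries. How the counting treated reads that match both copies is not stated, so the division between them is uncertain.

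Most genes of the epidermal differentiation complex next to the S100 genes were at or near 0. Of 22 listed, 16 had at most 10 counts in every library, and 5 of these were at 0 in all. TCHH and TCHHL1, of the fused S100 type with an S100-like start, had 113 to 226 counts per library and stayed under the filter. IVL, which encodes involucrin of the cornified envelope, was the only one tested, at 27.3 and 29.5 CPM in eGFP libraries and 18.0 and 20.3 in VIRMA libraries (log2 fold change -0.57, SE 0.0684, edgeR adjusted p 3.91e-09). In size its fall lay between those of S100A7 and S100A8.

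S100A14 and S100A16 are neighbours, bind calcium weakly or at a single site, and are abundant in epithelia. S100A16 (chromosome 1, 153606886 to 153613145, minus strand) had 1172 and 1214 CPM in eGFP libraries and 783 and 831 in VIRMA libraries, with no overlap. The log2 fold change was -0.56 (SE 0.0284, 95% CI -0.62 to -0.51, edgeR adjusted p 4.34e-19), a loss of 32.4%. S100A14 (153614255 to 153616986, minus strand) had 1315 and 1347 CPM in eGFP libraries and 1052 and 1068 in VIRMA libraries. Its log2 fold change was -0.33 (SE 0.0256, 95% CI -0.38 to -0.28, edgeR adjusted p 9.09e-14), a loss of 20.3%. The intervals of these neighbours do not meet.

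S100P (chromosome 4, 6693069 to 6697170, plus strand) is the only member outside chromosome 1 and showed the largest rise. The protein binds ezrin, which ties actin to the membrane, and is secreted as a ligand of RAGE. It had 253 and 271 CPM in eGFP libraries and 346 and 376 in VIRMA libraries, both above both controls. The log2 fold change was 0.46 (SE 0.0351, 95% CI 0.39 to 0.53, edgeR adjusted p 4.42e-14), or 1.38-fold. EZR, the gene of ezrin, was lower, at 455 and 457 CPM in eGFP libraries and 343 and 344 in VIRMA libraries (log2 fold change -0.41, edgeR adjusted p 6.89e-15).

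S100A11 (chromosome 1, 152032506 to 152047907, minus strand), which acts with annexins in the repair of the plasma membrane, had overlapping groups in CPM. It was at 802 and 836 CPM in eGFP libraries and 803 and 876 in VIRMA libraries. The log2 fold change was 0.04 (SE 0.0312, 95% CI -0.03 to 0.10, edgeR adjusted p 0.313), so the interval leaves room for a rise of up to 0.10 and a fall of up to 0.03 on the log2 scale. Single libraries decide this value. Without VIRMA-overexpressing replicate 1 the log2 fold change was 0.10 (edgeR adjusted p 0.0174), and without VIRMA-overexpressing replicate 2 it was -0.03 (edgeR adjusted p 0.516). S100A11 also passed the test with upper-quartile factors (0.11) and library totals (0.12). ANXA1, its best known partner, was under the filter, with 351 and 268 counts in eGFP libraries and 352 and 249 in VIRMA libraries.

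S100A13 (chromosome 1, 153618787 to 153631360, minus strand) takes part in the release of growth factors that lack a signal peptide, such as FGF1. It had 60.8 and 52.7 CPM in eGFP libraries and 50.3 and 47.1 in VIRMA libraries, and the lower control lay close to the higher of the other libraries. The log2 fold change was -0.22 (SE 0.0518, 95% CI -0.33 to -0.12, edgeR adjusted p 0.000304), a loss of 14.2%. Without eGFP control replicate 1 it was -0.12 (edgeR adjusted p 0.0561) and no longer passed. S100A13 shares 235 of its 2216 exonic bases with S100A1 on the opposite strand, which had 400 to 502 counts per library, and 536 with a clone-named gene on the same strand that had at most 8 counts. Whether the counting used strand is not stated, so reads of the part shared with S100A1 may be placed in either gene or in none. Strand cannot separate reads of the 536 bases shared on the same strand, and how the counting placed them is not stated.

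The table held 11 other S100 genes, of which 5 were tested, with 3 lower and 2 not called. S100A4, metastasin, is a driver of cell motility and was the only abundant one, at 490.3 and 497 CPM in eGFP libraries and 418 and 419 in VIRMA libraries (log2 fold change -0.24, SE 0.0285, edgeR adjusted p 3.39e-09). S100A3, a hair cuticle gene, was at -0.65 with 104 to 227 counts per library, and S100A2, a gene of basal epithelia, at -0.54 with 154 to 230 counts (edgeR adjusted p 0.0133 and 0.0176). S100A1, best known from heart muscle, was at 0.19 and S100A5 at 0.14 (edgeR adjusted p 0.217 and 0.490). S100B, the glial member, had 2 and 5 counts in eGFP libraries and 0 in both VIRMA libraries, and S100G, the intestinal calbindin, 0 and 0 against 1 and 2. S100Z and S100A7L2 were at 0 in all libraries.

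Along chromosome 1, 12 S100 genes tested lie from S100A9 to S100A13, of which 9 were lower, 1 higher and 2 not called. Over all genes tested 35.9% were lower and 35.1% higher, and the 12 include members already counted above. S100A6 was the 1 that was higher. S100A5, the S100 gene next to it on the same strand, was at 0.14 and not called (edgeR adjusted p 0.490). Beyond S100A5 on that strand, S100A4, S100A3 and S100A2 were lower. Of the 17 other genes tested with a start within 500 kb of this span, 6 were lower and 5 higher, with a median log2 change of -0.03. SLC27A3, a fatty acid transport gene, was at -1.07, INTS3, a subunit of the Integrator complex, at 0.71, and IVL at -0.57. Genes of both directions thus lay side by side in and around the cluster.

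**Figure D4:**
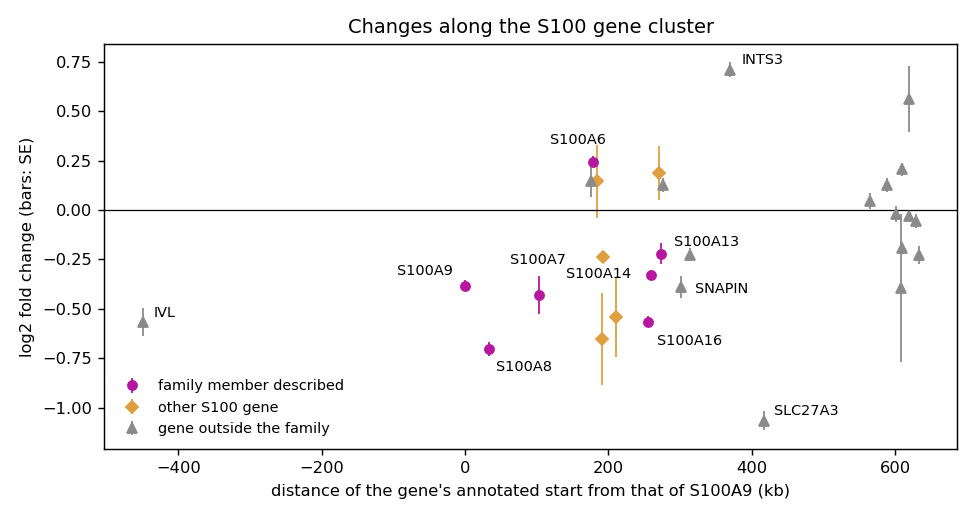
Log2 fold change (bars, SE) against the distance in kb of each gene's start from that of S100A9, for members (magenta circles), other S100 genes (orange diamonds) and genes outside the family (grey triangles) that were tested within 500 kb of the cluster. All members in this span but S100A6 (0.24) lie below 0, while genes outside the family lie on both sides, from SLC27A3 (-1.07) to INTS3 (0.71).

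Other proteins with EF-hands were read for comparison. Of 22 listed genes 20 were tested, of which 15 were lower, 4 higher and 1 not called, with a median log2 change of -0.31 (13 lower and 4 higher with upper-quartile or library-total scaling). CALM3, a gene of the calcium sensor calmodulin, was lower, with a log2 fold change of -1.06. It had 184 and 181 CPM in eGFP libraries and 88.2 and 87.2 in VIRMA libraries (edgeR adjusted p 1.08e-24). CALML5, a calmodulin-like protein of the epidermis, was lower, at -0.96 with 137 to 302 counts per library, as was EFHD2, at -0.74. NUCB2, a Golgi calcium protein and the precursor of nesfatin, went the other way, from 46.0 and 45.0 CPM in eGFP libraries to 125 and 126 in VIRMA libraries (log2 fold change 1.46, edgeR adjusted p 2.88e-27).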

How the data were processed

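RNA-seq libraries were grouped by their labels. Per the labels, the authors trimmed reads with Trimmomatic 0.39, aligned them with STAR 2.5.2a and assigned them to genes with featureCounts. The table the authors deposited holds unnormalized counts beside each gene's exon coordinates (GRCh38) and exonic length. Use of strand and multimapping reads is not given in the sources used here. Only the control columns carry their group's name; the other 2, named by a number, were taken as the remaining group.

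RPKM was computed from library totals and CPM from TMM-scaled totals. An RPKM above 1 in 2 or more of the 4 libraries left 12205 genes, which were compared between groups, with no covariate, by the edgeR 4.0.16 quasi-likelihood test in R 4.3.3. Their p-values were adjusted together by the Benjamini-Hochberg method. The test was checked on simulated data in which 200 of 12205 genes changed, each by more than 2-fold, with the same relative spread for all genes. Past both thresholds 100% of these were recovered with 0 false calls, and the adjusted p alone gave 14 false calls. Most members moved by less than 2-fold, and the check does not cover changes of that size. Counts differed between replicates by more than sampling noise (chi-square per degree of freedom 5.08 and 4.31), and the biological coefficient of variation was 3.93%.

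The members and all gene lists were chosen with earlier results of these data known. Genes named are the members, the other S100 genes, VIRMA, up to 4 genes per list and 3 near the cluster with the largest changes past the adjusted p. ANXA9, AHNAK, PLAT, S100PBP, SUGT1, EZR, ANXA1, SDC4, AGER, TLR4, CD36, CD33, STAT3, CEBPA, CEBPD, NFKB1, NFKBIA, RELA, TCHH, TCHHL1, ERBB2, CDH1, the leukocyte markers other than CSF1R, and HBB were named after their values were seen. One further result is not reported here. RefSeq promoters (GRCh38.p14) were matched by symbol for all 10 members.

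The alternatives were DESeq2 1.42.0, voom of limma 3.58.1, 3 other scalings, 3 other filters, a replicate block, leaving out each library and other thresholds.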

Additional observations from a re-analysis of the deposited data

How the results depend on the processing

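Of 90 values of the 10 members under the alternatives other than leaving out a library, 87 had the same direction and call as reported. The exceptions were all S100A11, at 0.107 with upper-quartile factors (edgeR adjusted p 0.00217), 0.119 with library totals (edgeR adjusted p 0.000928) and -0.0082 with filterByExpr. Leaving out each library in turn gave -0.029 to 0.097 for S100A11 and -0.320 to -0.118 for S100A13 on the log2 scale, and the other 8 members kept their calls. With a single library left in a group, that library is assumed to vary like the other group. The 1 member lower past both thresholds became 0 with library totals, 0 when tested against 2-fold and 7 at the adjusted p alone, where 2 were higher. Over all genes the counts past both thresholds were 552 higher and 358 lower, against 1137 and 820 with no filter and 1044 and 808 with filterByExpr, while a minimum of 10 counts per library gave 930 and 689. Without correction for length, 4 places of the order of levels changed among eGFP libraries and 6 among VIRMA libraries. Whether same-numbered replicates share more than a number is not stated (correlation of their deviations 0.0755). With the replicate number as a block S100A10 stayed at -1.08, and 2 members were higher and 7 lower. Past both thresholds, 541 genes were then higher and 356 lower. Depth limits S100A12, S100B, S100G, TLR4 and CD36, which were under the filter.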
